A study of Mus musculus with 6 samples.

Results

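The Eph receptors, their ephrin ligands, the semaphorins, the plexins and the neuropilins were first known as guidance molecules of growing axons, and all are also used by epithelial cells. They were taken as the protein-coding genes whose symbol begins with Epha, Ephb, Efna, Efnb, Sema, Plxn or Nrp and goes on with the member's number or letter, and 52 of the 22295 genes of the count table met this rule. They comprised 8 class A and 5 class B Eph receptors, 5 class A and 3 class B ephrins, 20 semaphorins, 9 plexins and 2 neuropilins. RNA was sequenced from keratinocytes of the back skin that were sorted for GFP, from 3 K19 *Itga3* WT and 3 K19 *Itga3* KO mice, with 1 library per mouse. The WT mice carried K19-CreER and the mT/mG reporter on an FVB background (FVB/N in the study's methods), and the KO mice carried the same transgenes and *Itga3* fl/fl, so the controls had the Cre and the reporter too. All mice received tamoxifen, which the labels put at 10 mg/ml over 4 days at 6 weeks of age, then 30 μg DMBA at 7 weeks of age, then repeated applications of 12.34 μg TPA, each in 200 μl acetone. The study's methods differ on tamoxifen. They give a lower concentration for the injections, begun shortly before 6 weeks of age, and add topical doses at 6 weeks. The K19 promoter drives Cre in the hair bulge (HB), the stem cell niche of the hair follicle (HF), so that GFP marks HB cells and their progeny. The comparison asked which of these genes depended on integrin α3β1 in HB-derived keratinocytes during the initiation stage of tumorigenesis.

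The libraries held 20578309 to 23670507 counts on genes. The columns named the genotype and a mouse but not the sample numbers of the labels, so the libraries of each genotype are called a, b and c by their place in the table, and each set of 3 values below follows that order. Levels were given as CPM, counts scaled by library size and by TMM factors, which lay between 0.981 and 1.03, and levels of different genes were compared only per kilobase of exon. The floor of 3 counts in a library corresponded to 0.128 to 0.145 CPM and covers counting error only, as the reads carried no molecular identifiers. The targeted gene *Itga3* (chromosome 11) had 371, 252 and 271 CPM in WT and 131, 124 and 134 CPM in KO, so every KO library was below every WT library. In edgeR the log2 fold change was −1.20 (SE 0.13, adjusted p = 0.00283), where SE is the standard error, and the adjusted p was 0.130 without WT c and 0.0934 without KO a. The KO libraries kept 0.434 of the WT level. These counts cover the whole gene, including parts outside the floxed stretch. Keratinocyte and HB markers (8 genes) summed to 31592 to 48504 CPM, against 8.08 to 13.8 CPM for 7 immune and 3.91 to 8.72 CPM for 8 endothelial markers, and of these the endothelial Emcn, Tie1 and Cdh5 and the immune Lyz2 had 3 counts or fewer throughout. Fibroblast markers (6 genes) summed to 116 to 178 CPM in WT and 48.1 to 80.3 CPM in KO libraries, with Lum at 3 counts or fewer throughout and Col3a1 at 0 in some libraries. Over all libraries, suprabasal markers (4 genes) summed to 1141 to 1613 CPM. Schwann and nerve markers (6 genes) summed to 32.7 to 49.2 CPM and melanocyte markers (6 genes) to 6.93 to 14.4 CPM. These marker sums were not scaled by exon length. In RNA from a sorted population, fewer cells of a type and less RNA per cell cannot be told apart.

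Ephrins are bound to the membrane, class A by a lipid anchor and class B by a transmembrane segment, and they activate Eph receptor tyrosine kinases on the neighbouring cell while class B ephrins also signal back into their own cell. Most contacts of this kind repel cells, and in epithelia they are known for keeping cell populations apart and for restraining growth. Semaphorins are secreted (class 3) or membrane-bound ligands of the plexins, large receptors that act on small GTPases and on the cytoskeleton, and most class 3 semaphorins bind a plexin through a neuropilin as co-receptor.

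The promoters of these genes were compared by their number of CpG dinucleotides, which are dense at the starts of many widely used genes. RefSeq windows of the 250 bases before a transcript start (GRCm38.p6) could be matched by symbol for 46 of the 52 genes, and where a gene had several windows the window with the most CpG was used. The median number of CpG was 16 (2 to 39) in the 33 genes with a mean of at least 10 counts per library, and 17 (2 to 46) in the 13 genes below this mean. Chosen in the same way, it was 17 in the 9619 protein-coding genes of the table with such a mean and a window, and 5 in the 2706 below it. The 13 genes spread widely and included Sema3a with 2, Plxnb3 with 3 and Sema4f with 4 CpG, and the medians were not tested. Over all 32851 windows, taken without this choice, the median was 6. 3 windows are printed with every CpG in capitals. They belong to the gene with the highest level per kilobase, a receptor gene with 1 count in all 6 libraries together, and a ligand gene. The ligand gene had fewer CpG than the median of the 33, and its 3 KO libraries lay below the WT range. The windows are those of Ephb6 (chr6:41605261-41605510, plus strand, 27 CpG), Epha8 (chr4:136956817-136957066, minus strand, 46 CpG) and Sema3e (chr5:14025026-14025275, plus strand, 7 CpG), each written from 5′ to 3′. The window of Ephb6 ends inside the gene as the count table bounds it, since RefSeq places the start further downstream.
Ephb6: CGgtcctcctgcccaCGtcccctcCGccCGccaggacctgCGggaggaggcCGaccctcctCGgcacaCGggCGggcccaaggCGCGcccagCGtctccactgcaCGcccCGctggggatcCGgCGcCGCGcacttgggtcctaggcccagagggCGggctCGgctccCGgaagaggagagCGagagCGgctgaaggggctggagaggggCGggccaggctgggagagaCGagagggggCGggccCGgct
Epha8: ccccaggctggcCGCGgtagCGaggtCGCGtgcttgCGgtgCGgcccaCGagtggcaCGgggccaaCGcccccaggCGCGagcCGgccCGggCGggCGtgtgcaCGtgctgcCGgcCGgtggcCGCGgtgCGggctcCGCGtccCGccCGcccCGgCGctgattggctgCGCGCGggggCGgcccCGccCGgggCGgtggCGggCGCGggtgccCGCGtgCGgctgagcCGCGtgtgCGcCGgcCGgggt
Sema3e: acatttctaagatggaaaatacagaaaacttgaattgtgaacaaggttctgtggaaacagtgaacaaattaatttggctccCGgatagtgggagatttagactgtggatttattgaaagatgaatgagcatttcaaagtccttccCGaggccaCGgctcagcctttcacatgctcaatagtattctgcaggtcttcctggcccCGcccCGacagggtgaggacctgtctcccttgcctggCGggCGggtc
The motif TGANTCA, the site bound by AP-1 factors, which reads the same on both strands, was found in 3 of the 60 windows of these genes (5%) and in 6.75% of all 32851 windows. GGAATG, the core of the TEAD site, was found on either strand in 7 of the 60 windows (11.7%) and in 12.6% of all windows. None of the 3 printed windows held either motif.

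Of the 52 genes, 39 had a mean of at least 10 counts per library, and these 39 also had at least 10 counts in every library. 23 genes had at least 1000 counts in every library, and 9 did not exceed 3 counts in any. No member passed the test of KO against WT in edgeR (0 of 52, adjusted p below 0.05 over 21681 genes, where 0.673% of all genes were called), and none passed in limma-voom (0 of 52, 0.111% of all genes). DESeq2 called 3 of the 39 members for which it gave an adjusted p, Sema3b, Sema6a and Nrp2, all higher in KO, while it called 3.99% of the 13690 genes with an adjusted p. At an unadjusted p below 0.05 in edgeR there were 8 members (15.4%), 5 with a higher and 3 with a lower level in KO, beside 11.5% of all genes. Among genes with a mean of at least 10 counts the share was 20.5% of the 39 members and 16.5% of all. The CPM of the genotypes did not overlap in 10 members (19.2%), 6 with KO above WT and 4 with KO below WT, against 16.3% of all genes, or 25.6% of the 39 members against 21.6% of all. The median log2 fold change over the 52 was 0.05, with 33 higher and 19 lower. Over all genes it was 0.00, with 10841 higher and 10840 lower. Among the 39 members it was 0.039, with 24 higher and 15 lower. Of all genes with a mean of at least 10 counts, 6851 were higher and 6927 lower. The background shares are those of all genes under the same rule.

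**Figure D1:**
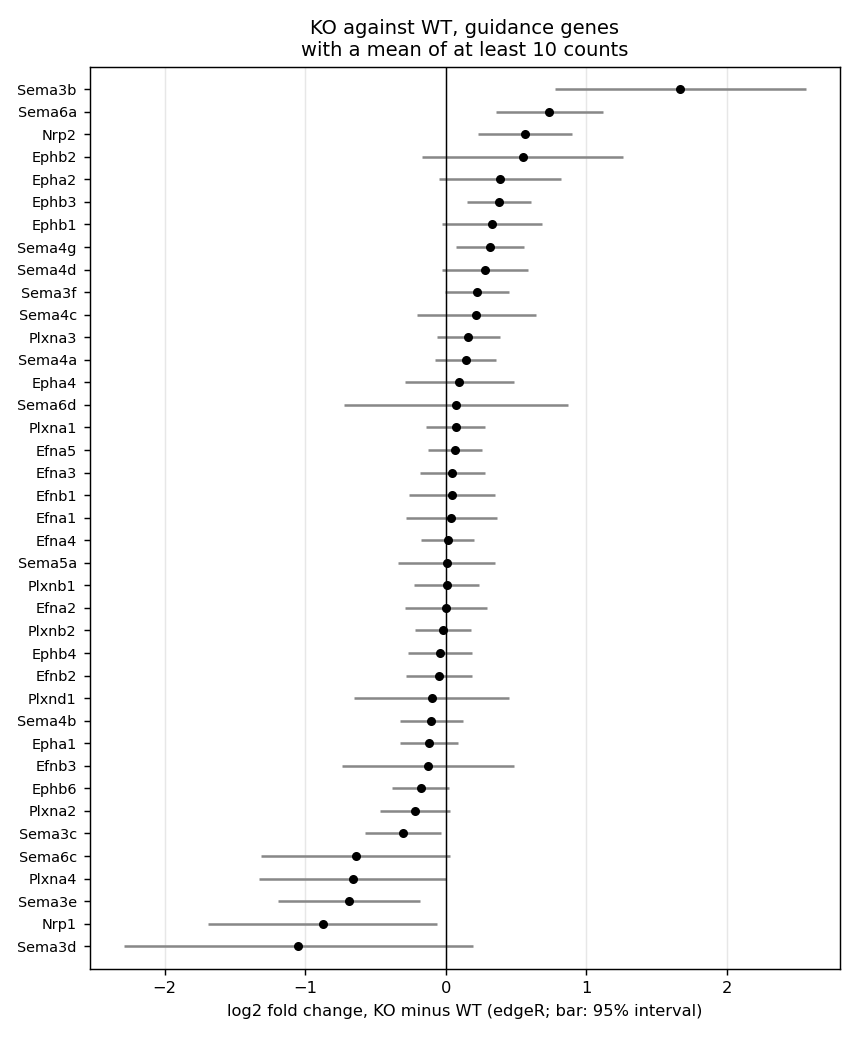
Log2 fold change of KO against WT (horizontal axis, edgeR) with its 95% interval (grey bars) for the 39 guidance genes with a mean of at least 10 counts, in order of the estimate. Intervals wholly above 0 belong to Sema3b, Sema6a, Nrp2, Ephb3 and Sema4g, and intervals wholly below 0 to Sema3c, Sema3e and Nrp1, while the ephrins lie close to 0.

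For the well-measured members the data limit how large a difference could be. The 95% interval of the fold change lay within 1.5-fold in either direction for 22 members, which included 21 of the 23 with at least 1000 counts in every library. Summed over members, the Eph receptors gave 1070.4 ± 33.01 CPM in WT and 1082 ± 28.01 CPM in KO libraries (SD, n = 3 each), and the ephrins 996 ± 71.3 CPM in WT and 1008 ± 40.01 CPM in KO libraries (SD, n = 3 each). Plexins summed to 1582 ± 114 CPM in WT and 1571 ± 70.4 CPM in KO libraries (SD, n = 3 each), and semaphorins to 755 ± 56.9 CPM in WT and 739 ± 60.1 CPM in KO libraries (SD, n = 3 each). In each of these 4 sums the ranges of the genotypes overlapped. Neuropilins, by contrast, summed to 27.5 to 39.7 CPM in WT and 42.6 to 47.1 CPM in KO libraries, which did not overlap, and nearly all of this sum was Nrp2.

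**Figure D2:**
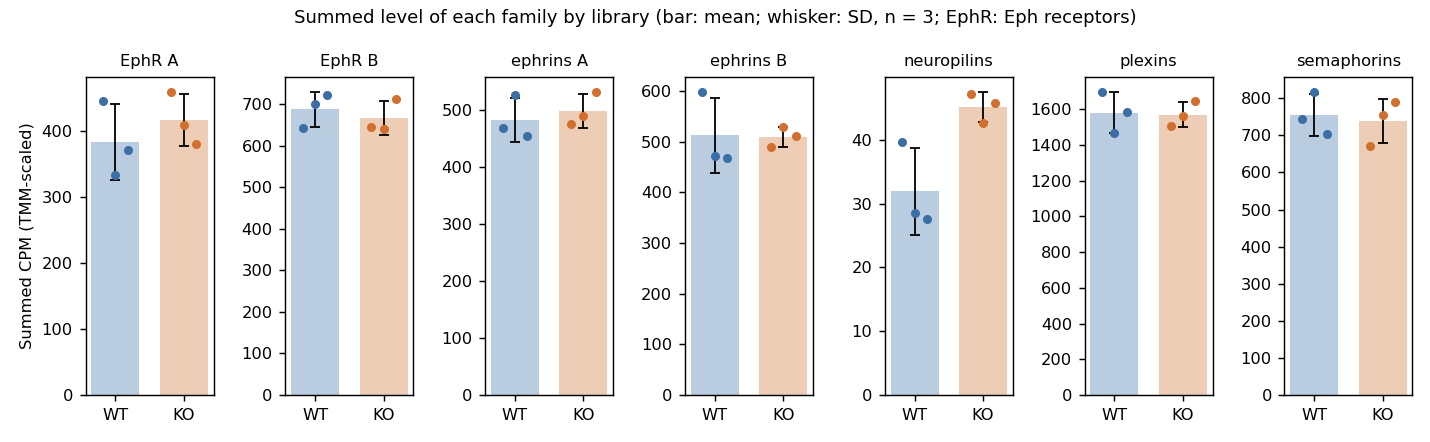
Summed TMM-scaled CPM (vertical axes, each starting at 0) of the 7 families by genotype, with a dot per library, bars for the mean and whiskers for the SD (n = 3). WT and KO overlap in every family except the neuropilins, where the 3 KO libraries stand above the 3 WT libraries.

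Among the Eph receptors, the class B gene Ephb6 (ENSMUSG00000029869, chromosome 6, 41605482 to 41620509) had the highest level of all 52 genes, 94.9 CPM per kilobase as the mean of 6 libraries (86.1 to 106), at percentile 98.1 of the genes tested. Ephb6 encodes a receptor whose kinase domain is inactive. It was followed by Ephb4 at 44.9 (41.4 to 50.5), the receptor of ephrin-B2, and by Ephb3 at 13.9 CPM per kilobase (11.3 to 17.4). Ephb1 (1.47 to 2.46) and Ephb2 (0.1602 to 0.5799) came last, and no neighbours in this order overlapped over the 6 libraries. Of class A, Epha1 (35.02 CPM per kilobase, 31.02 to 39.9), Epha2 (29.1, 18.9 to 43.5) and Epha4 (15.6, 10.8 to 20.3) were the members with a mean of at least 10 counts. Epha1 and Epha2, and likewise Epha2 and Epha4, overlapped over the 6 libraries. The receptor genes Epha3, Epha5, Epha8 and Epha10 stayed at or below 3 counts in every library, and Epha7 had 0 to 6 counts.

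The Eph receptor gene with the smallest p was Ephb3 (ENSMUSG00000005958, chromosome 16, 21204755 to 21223305), a receptor of class B ephrins with known roles in placing epithelial cells. Its level was 78.7, 86.4 and 75.2 CPM in WT and 105, 91.6 and 116 CPM in KO. Every KO library was above every WT library, with KO b the closest to WT. The log2 fold change was 0.38 (SE 0.10, adjusted p = 0.144), from 80.1 ± 5.73 CPM in WT to 104 ± 12.02 CPM in KO (SD, n = 3 each), and over the omission of single libraries the adjusted p from edgeR ranged from 0.0895 to 0.542. In the exact two-sided permutation test all members without overlap had p = 0.1, the smallest p that 3 against 3 libraries allow. As a share of the summed CPM per kilobase of class B receptors, Ephb3 made up 7.54% ± 0.732 in WT and 10.3% ± 0.831 in KO (SD, n = 3 each). Ephb6 stood at 351, 391 and 398 CPM in WT and 325, 335 and 348 CPM in KO, so it was below the WT range in all 3 KO libraries, although KO c and WT a were 348 and 351 CPM. Its log2 fold change was −0.18 (SE 0.092, adjusted p = 0.513).

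Ephb4 had a log2 fold change of −0.044 (95% interval −0.27 to 0.18) at 196, 205 and 234 CPM in WT and 192, 196 and 228 CPM in KO, with overlapping genotypes. Epha2, a receptor of ephrin-A1 that is abundant in epidermis, had 145, 88.3 and 120.1 CPM in WT and 204, 136 and 123 CPM in KO. The high Epha2 value was that of KO a, and the genotypes overlapped, with a difference of 0.39 (SE 0.20, adjusted p = 0.505) on the log2 scale. Epha1 differed by −0.12 (95% interval −0.33 to 0.091) and Epha4 by 0.10 (95% interval −0.29 to 0.48) on the log2 scale, and for Epha4 the WT libraries ranged from 87.2 to 163 CPM, around all 3 KO libraries. Ephb1 and Ephb2, both expressed at low levels, had differences of 0.33 and 0.55 on the log2 scale, with overlapping genotypes (adjusted p = 0.477 and 0.579).

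The ephrins had small differences between the genotypes, with a median absolute log2 fold change of 0.039 in class A and 0.048 in class B. Over all genes with a mean of at least 10 counts it was 0.14, a background not matched to the higher counts of most ephrins. Efna1 (79.01 CPM per kilobase as the mean of 6 libraries, 61.7 to 99.4) was the highest of class A, before Efna3 (56.1, 50.3 to 63.5), Efna5 (35.3, 32.9 to 37.6), Efna4 (34.2, 33.5 to 34.98) and Efna2 (5.88, 5.35 to 6.396). Of neighbours in this order, Efna1 and Efna3 overlapped, as did Efna5 and Efna4. Of class B, Efnb1 (62.6 CPM per kilobase, 50.01 to 74.6) was above Efnb2 (42.7, 37.8 to 49.4) in every library, and Efnb3 was far lower at 0.832 (0.634 to 1.21). Efna1, a ligand of Epha2, had 133, 182 and 113 CPM in WT and 147, 135 and 157 CPM in KO. The 3 KO libraries lay inside the WT range, whose highest value was WT b, and the log2 fold change was 0.039 (95% interval −0.29 to 0.36). Efna4 was the steadiest, at 54.6, 54.9 and 53.9 CPM in WT and 55.9, 53.6 and 55.5 CPM in KO. Its spread among the mice of a genotype was 0.928% of the mean in WT and 2.29% in KO.

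Efna3 and Efna5 had log2 fold changes of 0.048 (95% interval −0.18 to 0.28) and 0.064 (95% interval −0.13 to 0.26), and Efna2 one of 0.0026. Efnb1 stood at 258, 173 and 207 CPM in WT and 189.8, 233 and 236 CPM in KO, where WT a was the highest and WT b the lowest library, and its difference was 0.045 (95% interval −0.26 to 0.35). Efnb2, the ligand of Ephb4, had 338, 295 and 259 CPM in WT and 297, 294 and 272 CPM in KO, again with WT a highest (log2 fold change −0.048, 95% interval −0.28 to 0.19). Efnb3 (ENSMUSG00000003934, chromosome 11, 69554092 to 69560205), the only member on the chromosome of *Itga3*, had 44, 84 and 55 counts in WT and 51, 53 and 61 counts in KO, with a difference of −0.13 (95% interval −0.74 to 0.49) and overlapping genotypes. Adjusted p-values of the 8 ephrins lay between 0.785 and 0.999, and 5 of the 5 class A estimates and 1 of the 3 class B estimates were above 0.

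**Figure D3:**
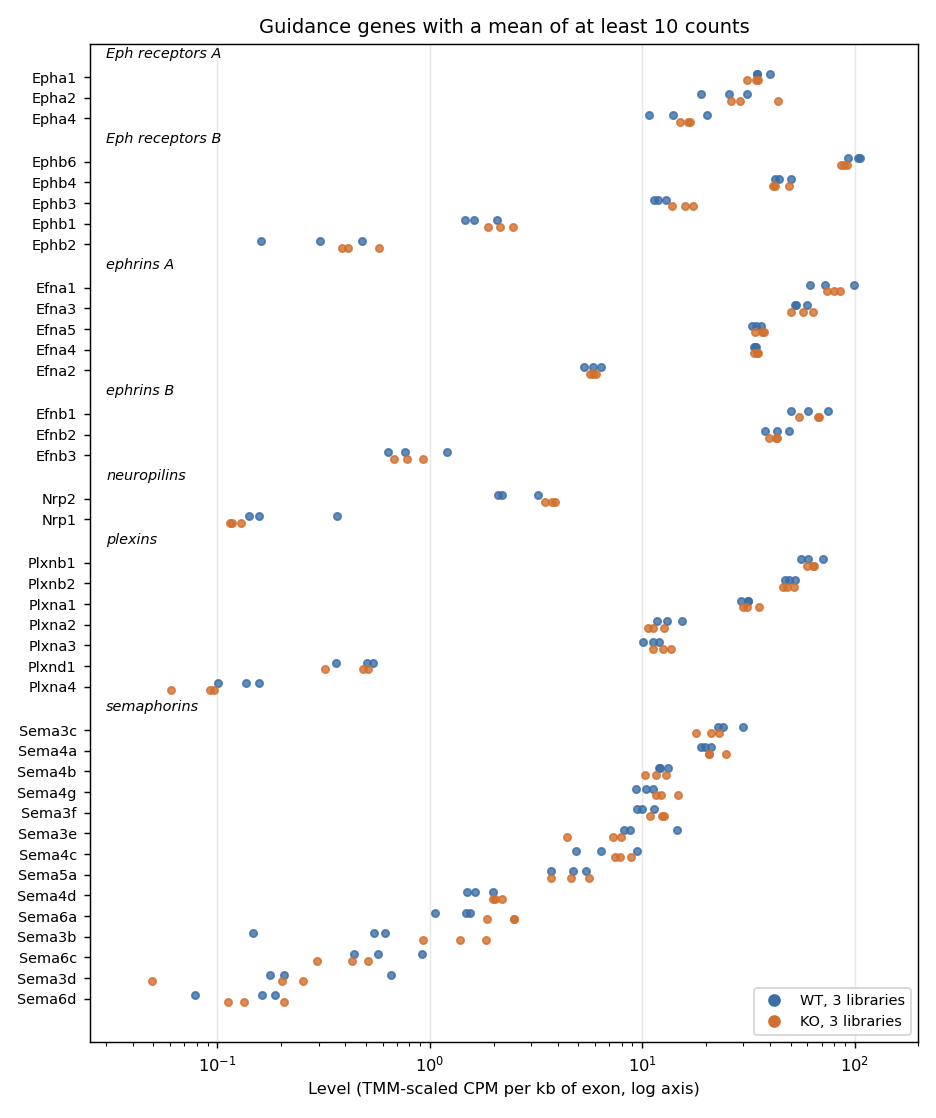
Level of the 39 guidance genes with a mean of at least 10 counts, as TMM-scaled CPM per kilobase of exon on a log axis, with 1 dot per library (WT blue, KO orange), grouped by family and ordered by mean level. Ephb6, Efna1, Plxnb1 and Efnb1 stand at the upper end and Nrp1, Plxna4 and Sema6d at the lower end, and within most genes the colours are mixed.

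Of the plexins, the class B genes Plxnb1 (62.6 CPM per kilobase as the mean of 6 libraries, 55.9 to 71.04) and Plxnb2 (49.1, 46.3 to 52.2), which encode receptors of class 4 semaphorins, were the highest, followed by Plxna1 (31.5, 29.3 to 35.5). Plxna2 (10.7 to 15.4) and Plxna3 (10.1 to 13.7) overlapped, while the other neighbours down to Plxna4 did not. Plxnd1, a receptor that binds Sema3e without a neuropilin, had 0.454 CPM per kilobase. Plxnc1 had 2 to 15 counts and Plxnb3 0 to 1 count per library. Plxnb1 stood at 681, 536 and 579 CPM in WT and 575, 612 and 617 CPM in KO, with WT a and WT b as the extremes and a difference of 0.0064 on the log2 scale (95% interval −0.23 to 0.24). The intervals were −0.22 to 0.18 for Plxnb2 and −0.14 to 0.28 for Plxna1. For each of these 3 receptors the genotypes overlapped.

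Plxna4 (ENSMUSG00000029765, chromosome 6, 32144268 to 32588192), a co-receptor of neuropilins for class 3 semaphorins, was at a low level, with 31, 42 and 50 counts in WT and 20, 29 and 27 counts in KO. These counts correspond to 1.42, 1.92 and 2.204 CPM in WT and 0.8501, 1.36 and 1.31 CPM in KO, so the 3 KO libraries lay below the WT range, with KO b and WT a almost level. The resulting log2 fold change was −0.66 (SE 0.30, adjusted p = 0.437). Plxna2 and Plxna3, both well counted, had differences of −0.22 and 0.16 on the log2 scale, with overlapping genotypes and adjusted p-values of 0.519 and 0.619. Of the 9 plexins 3 estimates were above 0 and 6 below 0, the latter including Plxnc1 and Plxnb3 with their few counts. None had an unadjusted p below 0.05.

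The pair of neuropilins, co-receptors for class 3 semaphorins and for VEGF, lay on opposite sides of the WT range in KO, Nrp2 above it and Nrp1 below it. Nrp2 (ENSMUSG00000025969, chromosome 1, 62703285 to 62818695) had 38.3, 24.9 and 25.97 CPM in WT and 45.99, 41.5 and 44.4 CPM in KO. All 3 KO libraries were above all WT libraries, and WT a was well above WT b and WT c. KO exceeded WT by a log2 fold change of 0.56 (SE 0.15, adjusted p = 0.139), from 29.7 ± 7.45 CPM in WT to 43.98 ± 2.28 CPM in KO (SD, n = 3 each). DESeq2 gave an adjusted p of 0.0383 and limma-voom one of 0.194. Without WT a the log2 fold change from edgeR was 0.80 with an adjusted p of 0.00655, in a fit that called 2.44% of all genes, and with single libraries left out the adjusted p ranged from 0.00655 to 0.5904.

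Nrp1 (ENSMUSG00000025810, chromosome 8, 128359073 to 128505462), the main co-receptor of Sema3a, was far lower at 0.171 CPM per kilobase, against 3.11 for Nrp2. It had 30, 78 and 35 counts in WT and 27, 24 and 26 counts in KO, or 1.38, 3.57 and 1.54 CPM in WT and 1.15, 1.13 and 1.26 CPM in KO. The KO libraries were close together and below every WT library, and WT b stood apart from WT a and WT c. The log2 fold change of −0.88 (SE 0.37, adjusted p = 0.393) was −0.31 in the fit nearest to 0 among those with a library left out. Nrp1 is abundant in endothelial and mesenchymal cells. The summed level of 8 endothelial markers was 6.00 to 8.72 CPM in WT and 3.91 to 5.35 CPM in KO libraries. These and the fibroblast markers lay below the WT range in KO too. Smooth muscle and pericyte markers did not, with sums of 1.97 to 3.16 CPM in WT and 2.95 to 5.76 CPM in KO libraries. The part of such cells in the Nrp1 values was not tested. Nrp2 made up 91.4% ± 5.55 in WT and 96.9% ± 0.192 in KO (SD, n = 3 each) of the summed neuropilin CPM per kilobase.

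**Figure D4:**
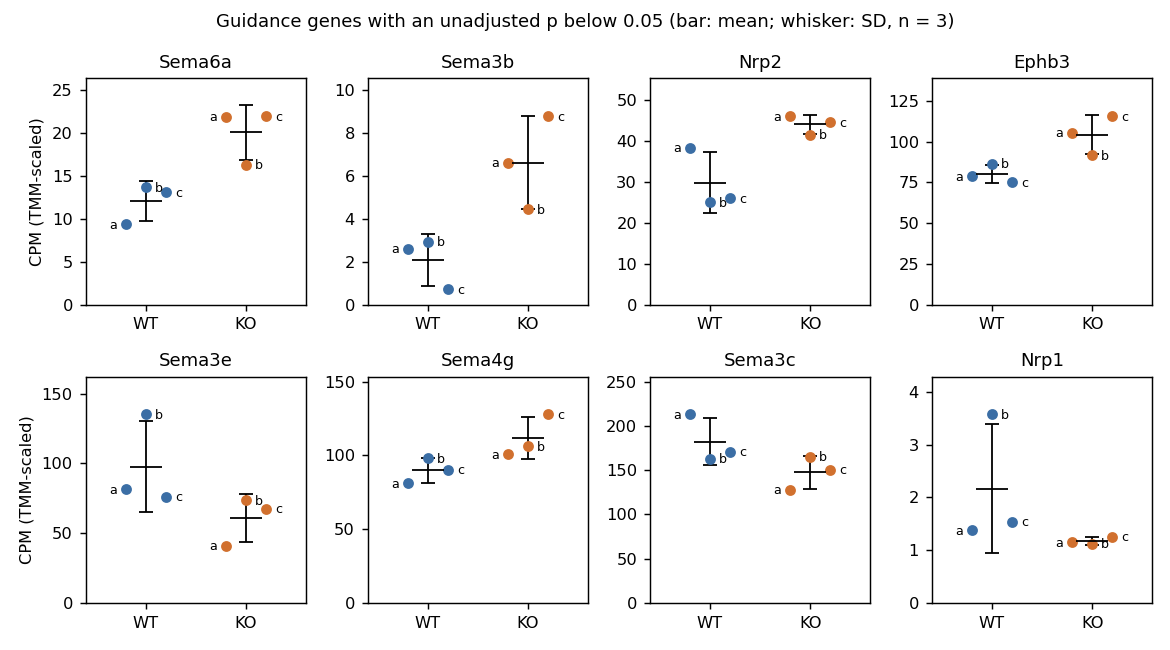
TMM-scaled CPM (vertical axes, each starting at 0) of the 8 guidance genes with an unadjusted p below 0.05 in edgeR, with a dot and letter per library, a horizontal bar for the mean and whiskers for the SD (n = 3). The genotypes are apart in every panel except that of Sema3c, where KO b lies above WT b.

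Among the secreted class 3 semaphorins, Sema3c had the highest level per kilobase (23.1 CPM per kilobase as the mean of 6 libraries, 17.9 to 29.8), ahead of Sema3f (11.1, 9.48 to 12.7) and Sema3e (8.51, 4.41 to 14.5), which overlapped. Sema3a did not exceed 3 counts in any library. The gene with the largest estimate among members with a mean of at least 10 counts was Sema3b (ENSMUSG00000057969, chromosome 9, 107597674 to 107609229), with 57, 64 and 16 counts in WT and 156, 95 and 182 counts in KO. This amounted to 2.62, 2.93 and 0.705 CPM in WT and 6.63, 4.46 and 8.802 CPM in KO. Every KO library was above every WT library, and WT c was far below WT a and WT b. The log2 fold change was 1.67 (SE 0.41, adjusted p = 0.0985), with a 95% interval of 0.77 to 2.56. DESeq2 gave an adjusted p of 0.0077 and limma-voom one of 0.184, and over the omission of single libraries the adjusted p from edgeR ranged from 0.0534 to 0.52.

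Sema3e (ENSMUSG00000063531, chromosome 5, 14025276 to 14256689), the ligand of Plxnd1 whose promoter is printed above, had 81.4, 135 and 76.1 CPM in WT and 40.98, 73.4 and 67.4 CPM in KO. The KO libraries were all below the WT libraries, but KO b and WT c were close, and WT b was the highest. This gave a log2 fold change of −0.69 (SE 0.23, adjusted p = 0.249). Sema3e made up 9.87% ± 2.69 in WT and 6.17% ± 1.499 in KO (SD, n = 3 each) of the summed semaphorin CPM per kilobase. Sema3c had 213, 163 and 171 CPM in WT and 128, 165 and 150.2 CPM in KO, where KO b lay above WT b. Its log2 fold change was −0.30 (SE 0.12, adjusted p = 0.373). Sema3f, a ligand of Nrp2, had 59.02, 51.7 and 49.3 CPM in WT and 65.8, 64.7 and 56.3 CPM in KO, where KO c lay below WT a, and its difference was 0.22 (SE 0.10, adjusted p = 0.444). Sema3d had 10 to 123 counts, the widest spread among the mice of a genotype in the 39 members with a mean of at least 10 counts, which was 77.8% of the mean in WT and 63.0% in KO. Sema3g had 1 to 11 counts per library. The summed fibroblast markers lay below the WT range in all 3 KO libraries, as Sema3e did, and their part in its values was not tested.

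The membrane-bound class 4 semaphorins, ligands of class B plexins among others, were led by Sema4a (20.95 CPM per kilobase as the mean of 6 libraries, 18.9 to 24.8), Sema4b (12.01, 10.3 to 13.2) and Sema4g (11.6, 9.37 to 14.7). Sema4a was above Sema4b in every library without overlap, while Sema4b and Sema4g overlapped, and with the length of the longest transcript Sema4g stood higher (22.1 against 17.2 CPM per kilobase). Sema4g (ENSMUSG00000025207, chromosome 19, 44989101 to 45003397) had 81.1, 97.9 and 90.3 CPM in WT and 101, 106 and 128 CPM in KO. Each KO library was above each WT library, KO a and WT b being close. In KO against WT the log2 fold change was 0.31 (SE 0.11, adjusted p = 0.277). Sema4d, the classical ligand of Plxnb1, had 11.5, 12.6 and 15.3 CPM in WT and 16.8, 15.3 and 15.6 CPM in KO, where KO b exceeded WT c only slightly, with a difference of 0.28 (SE 0.14, adjusted p = 0.492). Sema4a differed by 0.14 (95% interval −0.077 to 0.36) and Sema4b by −0.10 (95% interval −0.33 to 0.12) on the log2 scale, both with overlapping genotypes. Sema4c had a difference of 0.22 (95% interval −0.21 to 0.64), with overlap, and Sema4f did not exceed 3 counts in any library.

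Of the transmembrane class 6, Sema6a (ENSMUSG00000019647, chromosome 18, 47235598 to 47368870), a ligand of Plxna2 and Plxna4, had the smallest p of all 52 genes. It was measured at 9.32, 13.6 and 13.1 CPM in WT and 21.8, 16.3 and 21.9 CPM in KO, on 203 to 514 counts per library. KO a and KO c were highest, and KO b was closest to the WT libraries but still above them. KO exceeded WT by a log2 fold change of 0.74 (SE 0.17, adjusted p = 0.0865), with a 95% interval of 0.36 to 1.12, from 12.01 ± 2.35 CPM in WT to 20.01 ± 3.24 CPM in KO (SD, n = 3 each). DESeq2 gave an adjusted p of 0.0107 and limma-voom one of 0.176, and over the omission of single libraries the adjusted p from edgeR ranged from 0.0564 to 0.511. Sema6c and Sema6d, both with low counts (41 to 119 and 18 to 45 per library), had differences of −0.64 and 0.074 on the log2 scale with overlapping genotypes. Sema6b and Sema5b stayed at or below 3 counts in every library, Sema7a had 3 to 14, and Sema5a, with 1585 to 2225 counts, differed by 0.0070 (95% interval −0.34 to 0.35) on the log2 scale. The semaphorins below the leading 5 with a mean of at least 10 counts ranged from Sema3e at 8.51 to Sema6d at 0.147 CPM per kilobase. Of the 20 semaphorins 15 estimates were above 0 and 5 below 0, while over all genes tested 10841 were higher and 10840 lower. Every semaphorin with a mean below 10 counts was among those above 0, so part of this split rests on few counts. At an unadjusted p below 0.05 in edgeR there were 5 semaphorins, 3 of them higher and 2 lower in KO. The share was 25% of the 20, beside 11.5% of all genes. Restricted to a mean of at least 10 counts, these were 5 of 14 semaphorins, beside 16.5% of all genes with such a mean.

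The libraries stood at the extremes of these genes about as often as at those of other genes. WT b was the highest or the lowest of the 6 libraries in 20 of the 39 members with a mean of at least 10 counts (51.3%), beside 52.4% of all such genes, and KO b in 4 (10.3%), beside 15.6% of all.

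The genes that act directly with these receptors and ligands (84 rows of the table, with Mical3 under 2 gene IDs, among them adaptors, kinases, cleaving enzymes and co-receptors) gave 1 call in edgeR. Nck2, which encodes an adaptor that binds activated Eph receptors and ephrin-B, had 42.4, 43.1 and 47.1 CPM in WT and 69.8, 56.4 and 69.98 CPM in KO, and its KO libraries were all above the WT libraries. It rose in KO by 0.57 on the log2 scale (SE 0.11, adjusted p = 0.0447), while limma-voom gave an adjusted p of 0.127. Without WT b, WT c, KO a or KO c, with filterByExpr, with a minimum of 10 counts per library, or among protein-coding genes only, there were 0 calls in the list, while there were 4 without WT a and 5 with DESeq2. Of all genes 0.673% were called in edgeR, 2.44% without WT a and 3.99% with DESeq2. The next by p were Mical3, which encodes a monooxygenase of the MICAL family that plexins act through (0.39), the kinase gene Pak1 (0.36), Arhgef19 (0.37) and Ngef (−0.79), both guanine nucleotide exchange factors. Their adjusted p-values ranged from 0.113 to 0.144. Of the 84, 53 estimates were above 0 and 31 below 0, and 16 (19.0%) had an unadjusted p below 0.05. The share of all genes was 11.5%, or 16.5% at a mean of at least 10 counts, a limit that was not set on the 84.

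In the netrin, Slit and repulsive guidance families, 29 of 31 genes were in the table and none passed in edgeR (0 of 29), while 7 had an unadjusted p below 0.05 (24.1%) and DESeq2 called 2, with 0 in limma-voom. Of all genes 11.5% had such a p, or 16.5% at a mean of at least 10 counts, a limit that was not set on the 29. DESeq2 called 3.99%. Without WT b there were 2 calls in edgeR, and without KO b also 2, where 0.579% and 0.941% of all genes were called. Ntn1, which encodes the secreted ligand netrin-1 and lies on chromosome 11 as *Itga3* does, had 12, 27 and 9 counts in WT and 67, 44 and 120 counts in KO. Its KO libraries were all above its WT libraries, and the log2 fold change was 2.29 (SE 0.47, adjusted p = 0.0546). Rgma, a membrane-anchored repulsive ligand, differed by 0.63 (adjusted p = 0.0861), the Slit receptor gene Robo1 by 0.56, the netrin receptor gene Unc5b by −0.42 and Srgap3, an effector of Robo receptors, by −0.40 on the log2 scale. Of the 29 estimates 14 were above 0 and 15 below 0.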

How the data were processed

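RNA was measured in 6 strand-specific polyadenylated libraries, 3 per genotype. The authors aligned single reads of 65 bases to mouse genome build GRCm38 with TopHat2 2.1.0 (Bowtie 1.1) with Ensembl 77 gene models, and took as a gene's count the reads on its strand that mapped once. Because only reads that mapped once were counted, a gene that has a near-identical copy may be undercounted. The deposited values are these raw counts, neither normalized nor pooled. Each column named a genotype but not a sample number of the labels, and the 3 columns of a genotype served as replicates without numbers.

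Genes with a count in at least 1 library (21681 of 22295) were fitted in R 4.3.3 with edgeR 4.0.16 (TMM factors, glmQLFit, glmQLFTest), and every adjusted p is from this fit with Benjamini-Hochberg adjustment unless another tool is named. limma-voom (limma 3.58.1), DESeq2 1.42.0, library size only, upper-quartile factors, filterByExpr, at least 10 counts in every library, protein-coding genes only and the omission of each library were alternatives. Standard errors and 95% intervals are those of the edgeR fit. The code was tested on simulated data.

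Exon lengths came from GENCODE M21, which held all 52 genes, 34 with the same coordinates, and coordinates are those of the count table. Members were named if called, among the 10 smallest p, without overlap between the genotypes and with 10 or more counts in each library of 1 genotype, among the 3 highest levels per kilobase of a family, or on chromosome 11. Of the 2 other lists, called genes and the 5 with the smallest p were named. The members and lists were chosen with earlier results of these data known. Promoter windows came from RefSeq and were not used for Efnb3, Plxna1, Plxna4, Sema3b, Sema3f and Sema6a, which had no matching window.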

Additional observations from a re-analysis of the deposited data

How the results depend on the processing

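No paired analysis was possible because WT and KO libraries came from different mice that no source pairs, and the columns did not carry the sample numbers of the labels. Calls among the guidance genes stayed at 0 in 11 of 13 alternatives, and were 3 with DESeq2 and 0 to 1 over the omission of each library (1 without WT a). Calls among the signalling partners (1 in the main test) were 0 with limma-voom, filterByExpr, at least 10 counts in every library or protein-coding genes only, 5 with DESeq2 and 0 to 4 without single libraries. For the netrin, Slit and repulsive guidance families they were 2 with DESeq2 and 0 to 2 without single libraries. *Itga3* stayed between −1.31 and −1.01 on the log2 scale, with an adjusted p of 0.130 without WT c and 0.0934 without KO a. With the longest transcript in place of all exons, 19 of the 20 places among the 3 highest of each family (2 for neuropilins) were kept, Sema4g replacing Sema4b.

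Of the 27 named guidance genes, 17 kept their sign in all 13 alternatives. The other 10 had estimates that crossed 0 when a library was left out, with ranges of −0.094 to 0.38 for Epha4, −0.12 to 0.035 for Ephb4, −0.10 to 0.25 for Efna1, −0.036 to 0.13 for Efna3, −0.084 to 0.21 for Efnb1, −0.14 to 0.060 for Efnb2, −0.30 to 0.19 for Efnb3, −0.067 to 0.12 for Plxnb1, −0.068 to 0.027 for Plxnb2 and −0.0046 to 0.13 for Plxna1. With upper-quartile factors Plxnb1 was −0.0090. The causes were not tested. Low counts limit what can be said of the 13 members below a mean of 10 counts.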
